A study of Mus musculus with 4 samples.

Results

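The mitochondrial ribosomal proteins, encoded by the nuclear Mrpl and Mrps genes, were compared between differentiating MEL erythroleukemia cells and differentiating ES-EP cells of the mouse. Members were all array features annotated to exactly 1 gene whose symbol is Mrpl or Mrps followed by a number and at most 1 letter. This took 85 features, which stood for 77 genes, out of 35557 features in the table and 19938 named genes. By symbol, 48 of the genes belong to the large subunit and 29 to the small subunit. RefSeq lists 78 such genes, and Mrpl53, the missing one, has no feature of its own among those annotated to 1 gene. Of the 77 genes, 69 had 1 feature and 8 had several, of which the brightest over the 4 arrays stood for the gene.

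The mitochondrial ribosome sits in the mitochondrial matrix and makes the respiratory chain and ATP synthase subunits that mitochondrial DNA encodes. Its RNAs come from mitochondrial DNA, whereas all of its proteins are made in the cytosol from nuclear genes and imported. The small subunit decodes the messenger, and the large subunit forms peptide bonds and passes the product out through a tunnel that faces the inner membrane. Some of its proteins have a bacterial counterpart, and others are found in mitochondria alone. Maturing erythroid cells need mitochondria for the first and last steps of heme synthesis and for iron-sulfur clusters, and mammalian red cells lose their mitochondria at the end of maturation.

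The tested cells were MEL cells, labelled as erythroleukemia cells, that were grown in DMEM with serum and puromycin and differentiated with 17b-estradiol for 48 hours. They were set against ES-EP cells, erythroid progenitors from embryonic stem cells. These were expanded in StemPro34 with Epogen, hIGF-1, dexamethasone and SCF, then moved for 24 hours to Epogen, insulin and mifepristone. Each group had 2 cultures, lettered A and B, and each culture had 1 array. Cell line, medium, inducing agent and hours differed together and cannot be told apart, and undifferentiated cultures were not analysed here. The labels give neither the strain nor any transgene of the cells, nor whether a line is 1 clone, and they do not say that A and B were grown on separate occasions. The p-values therefore measure only the spread between these duplicates, which may be technical.

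The values are log2 RMA signals, in which a difference of 1 is a 2-fold change, given here as MEL minus ES-EP. RMA draws the arrays to a common distribution, so a change in total RNA per cell cannot be seen. Fewer cells of a type and less RNA per cell cannot be told apart in such bulk samples. Over 23410 tested features the duplicates correlated at 0.998 within MEL and 0.998 within ES-EP, and arrays of different groups at 0.943 to 0.945. Of 10 erythroid markers, 9 were measured, and their mean log2 signals spanned 4.35 to 12.4 in MEL cells and 7.60 to 13.2 in ES-EP cells. Of these, 7 were lower in MEL and 2 were higher, with a median difference of -0.81. The higher ones were the regulator Gata1 (0.46) and the erythropoietin receptor Epor (0.42). The lower ones were the regulators Tal1 (-0.55) and Klf1 (-0.81), the transferrin receptor Tfrc (-0.81), the membrane skeleton protein Ank1 (-1.06), the heme synthesis enzyme Alas2 (-1.33), the embryonic globin Hbb-bh1 (-3.25) and the anion exchanger Slc4a1 (-5.44). Slc4a1 was at 6.98 and 7.10 in MEL, against 12.45 and 12.51 in ES-EP. Markers of other lineages also differed. Of 5 megakaryocyte markers 3 were measured. Pf4 and Itga2b were higher in MEL by 4.38 and 2.22, Gp9 differed by -0.06 and was not called, and their means spanned 6.96 to 9.12 in MEL cells and 3.96 to 7.01 in ES-EP cells. All 4 mast cell markers were lower in MEL, with means of 3.76 to 6.28 in MEL cells, against 4.21 to 7.45 in ES-EP cells. Of these, Cpa3 lay under the lower quartile of the tested features, 4.74, in both groups. Of 5 myeloid markers 3 were lower and none was called higher. Of 4 lymphoid markers 3 were measured, and 2 were lower and none was called higher. Of 3 pluripotent markers 1 was higher and 2 were lower. Means in MEL and ES-EP cells spanned 4.27 to 5.02 and 4.34 to 5.63 for the myeloid markers. They spanned 3.66 to 5.80 and 3.92 to 6.06 for the lymphoid ones, and 3.95 to 5.31 and 3.74 to 5.88 for the pluripotent ones. Itgam, Lyz2, Cd79a, Pou5f1 and Zfp42 lay under that lower quartile in both groups, so calls among them say little about lineage. The part of these differences in the results below was not tested.

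More of these genes were lower in MEL than were higher. At an adjusted p under 0.05 (limma, adjusted over 23410 features), 10 of the 77 genes were higher in MEL (13.0%), 40 were lower (51.9%) and 27 were not called (35.1%). Among all 19938 genes 22.2% were higher and 38.2% were lower, so many genes of any kind differ between these cells. Every member had a mean signal above the median of the tested features, 6.13, with means over the 4 arrays of 7.14 to 11.7. A closer background is therefore the 9900 genes at or above that median, of which 34.3% were higher and 35.7% were lower. Against that background, the members had a smaller share higher in MEL and a larger share lower in MEL.

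The differences were mostly small. The median over the 77 members was -0.24 and the range was -1.61 to 1.31, beside a median of -0.14 over all genes and -0.04 over the genes at or above the median signal. The members' median minus that of all genes was -0.10, but it was -0.06 without MEL culture A and -0.19 without MEL culture B. Positive differences were found in 19 members and negative ones in 58. Negative differences also outnumbered positive ones among all genes, at 12601 against 7337. Of the 50 called members, 42 differed by less than 2-fold. At least 2-fold higher in MEL was 1 member, against 7.38% of all genes and 11.8% of the brighter genes. At least 2-fold lower were 7 members (9.09%), against 4.93% of all genes and 7.54% of the brighter genes. The MEL and ES-EP arrays did not overlap in 66 members (85.7%), 14 higher in MEL and 52 lower, a share near the 80.2% of all genes.

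**Figure D1:**
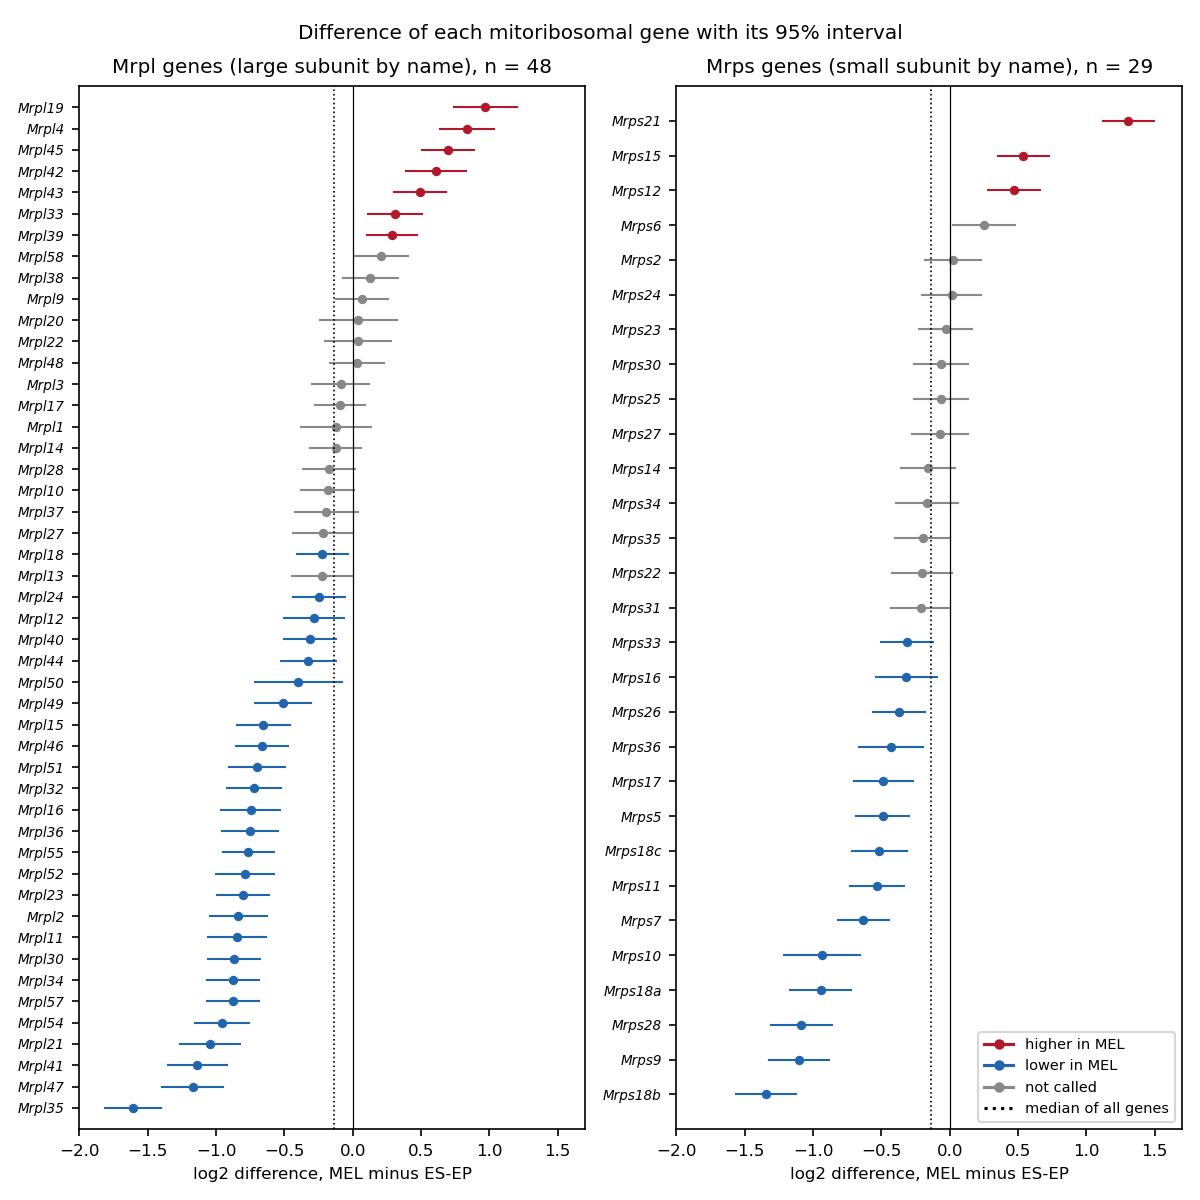
Difference in log2 signal, MEL minus ES-EP, for each of the 77 mitochondrial ribosomal protein genes, ordered by size in 1 panel per subunit, with bars for the 95% interval of the limma fit, colours for the call and a dotted line at the median of all genes. The genes run from Mrpl35 at -1.61 to Mrps21 at 1.31, with 40 called lower and 10 called higher in MEL.

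Mrps21 and Mrpl35 mark the ends of the range. Mrps21, the counterpart of bacterial bS21 in the small subunit, was at 11.80 and 11.86 in MEL, against 10.54 and 10.51 in ES-EP. Both MEL arrays lay above both ES-EP arrays, and the level in MEL was 2.48-fold higher (log2 difference 1.31, SE 0.0815, adjusted p = 5.36e-06). Mrpl35, the counterpart of bacterial bL35 in the large subunit, was at 7.68 and 7.82 in MEL, against 9.33 and 9.39 in ES-EP. It was 3.05-fold lower in MEL (log2 difference -1.61, SE 0.0887, adjusted p = 2.73e-06), again with no overlap.

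The promoters of 4 members are printed because they belong to the genes at the ends of the range, and to a pair of members that start back to back. Mrpl19, next below Mrps21 in the range, had no promoter at hand. The sequences come from RefSeq, build GRCm38.p6. They run 5′ to 3′ on the gene's strand from 250 bases before the start to 50 bases after it. Capitals mark a match, on either strand, to the motif of NRF1 (GCGCANGCG), of ETS factors such as GABP (CCGGAAG) or of YY1 (AANATGGCG). These factors are known regulators of nuclear genes for mitochondria.
Mrps21 promoter: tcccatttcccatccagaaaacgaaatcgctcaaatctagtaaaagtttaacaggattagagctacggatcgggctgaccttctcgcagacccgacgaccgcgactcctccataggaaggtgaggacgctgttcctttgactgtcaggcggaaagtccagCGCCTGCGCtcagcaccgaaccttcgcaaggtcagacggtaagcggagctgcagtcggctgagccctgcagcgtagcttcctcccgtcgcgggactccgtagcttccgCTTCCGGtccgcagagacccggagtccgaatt
Mrpl35 promoter: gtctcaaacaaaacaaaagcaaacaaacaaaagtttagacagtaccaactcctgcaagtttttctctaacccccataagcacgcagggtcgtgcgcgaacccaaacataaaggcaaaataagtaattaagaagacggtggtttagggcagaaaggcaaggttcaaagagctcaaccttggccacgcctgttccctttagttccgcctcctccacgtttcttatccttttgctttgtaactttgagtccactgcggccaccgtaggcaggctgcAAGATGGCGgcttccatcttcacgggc
Mrps18b promoter: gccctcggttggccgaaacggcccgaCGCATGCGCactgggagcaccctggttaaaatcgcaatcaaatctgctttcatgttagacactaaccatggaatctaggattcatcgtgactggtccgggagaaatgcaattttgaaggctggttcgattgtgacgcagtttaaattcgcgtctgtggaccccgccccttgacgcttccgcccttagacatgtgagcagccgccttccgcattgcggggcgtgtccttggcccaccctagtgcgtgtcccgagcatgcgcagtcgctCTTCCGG
Mrps11 promoter: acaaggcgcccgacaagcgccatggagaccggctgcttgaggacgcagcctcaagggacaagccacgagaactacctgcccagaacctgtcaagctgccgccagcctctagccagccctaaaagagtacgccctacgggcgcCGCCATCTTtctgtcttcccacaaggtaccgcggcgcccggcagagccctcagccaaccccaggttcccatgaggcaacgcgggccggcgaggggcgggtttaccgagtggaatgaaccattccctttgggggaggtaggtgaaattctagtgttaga
The Mrps21 window, at chr3:95871465-95871764 on the minus strand, holds an NRF1 match from base 161 and an ETS match from base 269, counted from 1 at its 5′ end. The Mrpl35 window, at chr6:71823735-71824034 on the minus strand, holds a YY1 match from base 274, past the start site. The Mrps18b window, at chr17:35916391-35916690 on the minus strand, holds an NRF1 match from base 27 and an ETS match from base 294. The Mrps11 window, at chr7:78782881-78783180 on the plus strand, holds a YY1 match from base 143. Mrps21, higher in MEL, and Mrps18b, lower in MEL, both held an NRF1 and an ETS match, at different positions. The NRF1 match begins at -90 from the start site in Mrps21 and at -224 in Mrps18b, and both ETS matches lie past the start site. Whether the motifs bear on the direction was not tested. A match describes letters and is not a measured binding site.

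In the large subunit, 7 of 48 genes were higher in MEL and 26 were lower, with a median of -0.26. After Mrps21, the largest positive differences were those of large subunit genes. Mrpl19, the counterpart of bacterial bL19, was at 8.85 and 9.06 in MEL, against 8.04 and 7.93 in ES-EP (difference 0.97, adjusted p = 8.88e-05). Mrpl4, whose bacterial counterpart lines the exit tunnel, was at 10.02 and 10.13 in MEL, against 9.25 and 9.22 in ES-EP (difference 0.84). Mrpl45, which lies at the tunnel exit and anchors the ribosome to the inner membrane, was at 9.98 and 10.03 in MEL, against 9.31 and 9.30 in ES-EP (difference 0.70). In these genes neither MEL array reached down to an ES-EP array. The mitochondria-specific Mrpl42 (0.61) and Mrpl43 (0.49) were also higher in MEL, as were Mrpl33 (0.31) and Mrpl39 (0.29).

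Below Mrpl35, the large subunit genes furthest lower in MEL were Mrpl47, Mrpl41, Mrpl21 and Mrpl54. Mrpl21, the counterpart of bacterial bL21, was at 8.22 and 8.34 in MEL, against 9.24 and 9.41 in ES-EP (difference -1.05, adjusted p = 4.40e-05). Mrpl54, a mitochondria-specific protein placed at the stalk, was at 7.70 and 7.64 in MEL, against 8.69 and 8.57 in ES-EP (difference -0.96). All of these had groups that did not overlap. Mrpl41, a mitochondria-specific protein, differed by -1.14 on its brighter feature and by -0.53 on the other, both called lower. The brighter feature has neighbours in number on chromosome 7, and the dimmer one on the gene's own chromosome, 2, so its place among the genes at least 2-fold lower rests on the feature in doubt. With own-locus features preferred 6 members were at least 2-fold lower, and with the mean of a gene's features 5 were.

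Mrpl47, the counterpart of bacterial uL29 near the tunnel exit, was the member whose features disagreed in the direction of a call. Its brighter feature was at 7.35 and 7.56 in MEL, against 8.60 and 8.65 in ES-EP, and was called lower (difference -1.17, adjusted p = 2.53e-05). Its dimmer feature was at 6.28 and 6.04 in MEL, against 5.84 and 5.76 in ES-EP, and was called higher (difference 0.36, adjusted p = 0.0176). Which of the features follows the gene's full transcript was not tested. The other 7 genes with several features had no opposite calls. Mrps5 differed by -0.49 on the brighter feature and -1.40 on the other, and Mrps33 was called on the brighter feature (-0.31) and not on the other (-0.13), which is the one whose neighbours lie on the chromosome of the gene.

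By position in the large subunit, the stalk, which receives the translation factors, had 4 of its 5 listed genes measured, and 3 were lower in MEL. Mrpl11, at the base of the stalk, differed by -0.85 and Mrpl12, its mobile arm, by -0.28, while Mrpl10, which joins the arm to the base, differed by -0.18 and was not called (adjusted p = 0.0921). Mrpl12 stood close to the threshold (adjusted p = 0.0306), and its adjusted p lay between 0.00411 and 0.276 over 17 other settings. It was no longer called without MEL culture A (0.0893), MEL culture B (0.0644) or ES-EP culture A (0.276), each an adjusted p. Of 6 genes of the central protuberance, which touches the small subunit, 4 were lower in MEL and none was called higher (median -0.27). Of 8 genes at the tunnel exit side, 2 were higher and 4 were lower (median -0.17), with Mrpl45 at 0.70 and Mrpl47 at -1.17 at the ends. Of all genes, 22.2% were higher and 38.2% were lower, and sets of 4 to 8 genes are too small to set against these shares.

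Mrpl44, a large subunit protein related to RNase III, was at 8.47 and 8.48 in MEL, against 8.87 and 8.73 in ES-EP (difference -0.33, adjusted p = 0.0129). With ES-EP culture A left out it was no longer called (adjusted p = 0.139). Mrpl58, a peptidyl-tRNA hydrolase built into the large subunit, was at 8.74 and 8.69 in MEL, against 8.55 and 8.46 in ES-EP, a difference of 0.21 that was not called (adjusted p = 0.0605).

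In the small subunit, 3 of 29 genes were higher in MEL and 14 were lower, with a median of -0.21. Beside Mrps21, the higher genes were Mrps15 and Mrps12. Mrps15, the counterpart of bacterial uS15, was at 10.94 and 10.89 in MEL, against 10.40 and 10.35 in ES-EP (difference 0.54). Mrps12, a protein of the decoding site, was at 7.35 and 7.41 in MEL, against 6.94 and 6.88 in ES-EP (difference 0.47, adjusted p = 0.00168). The 3 genes at least 2-fold lower were Mrps18b, Mrps9 and Mrps28. Mrps9, the counterpart of bacterial uS9, was at 7.94 and 8.01 in MEL, against 9.18 and 8.99 in ES-EP (difference -1.11). Mrps28 was at 7.19 and 7.38 in MEL, against 8.41 and 8.33 in ES-EP (difference -1.09).

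The paralogs Mrps18a, Mrps18b and Mrps18c all descend from bacterial S18 and were all lower in MEL, by different amounts. Mrps18b, a small subunit protein, was at 9.31 and 9.50 in MEL, against 10.71 and 10.79 in ES-EP (difference -1.34, adjusted p = 1.08e-05). Mrps18a was at 8.55 and 8.72 in MEL, against 9.66 and 9.51 in ES-EP (difference -0.95). Mammalian structures place the Mrps18a protein in the large subunit, and likewise that of Mrps30, which differed by -0.06 and was not called. Mrps18c, which takes the place of bacterial S18 in the small subunit, was at 10.61 and 10.74 in MEL, against 11.23 and 11.15 in ES-EP (difference -0.51). Mrps36, at -0.43, is named as a ribosomal protein but is now known as a subunit of the oxoglutarate dehydrogenase complex.

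**Figure D2:**
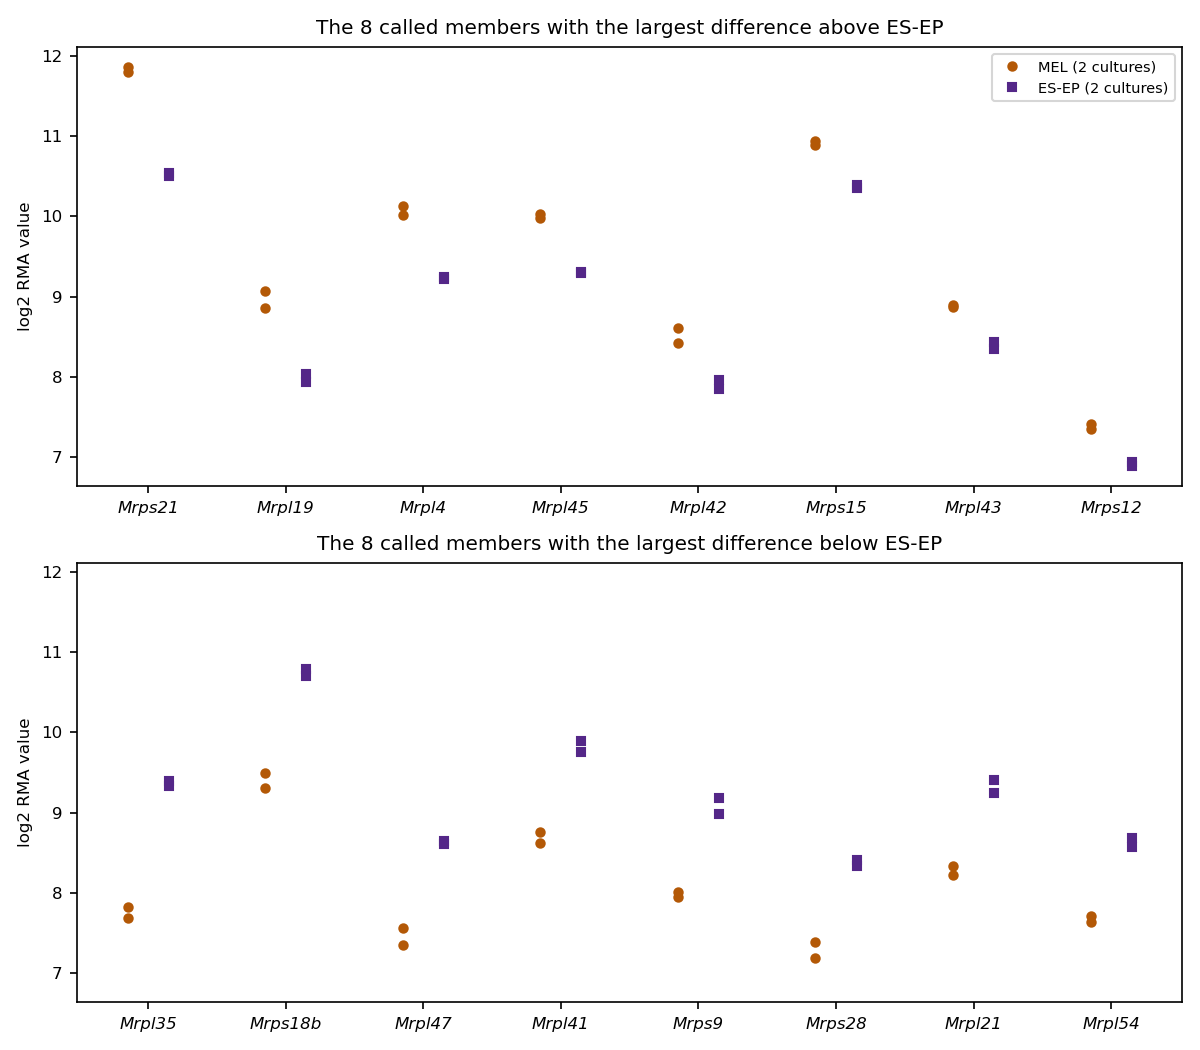
Log2 signal on each array for the called genes with the largest differences in either direction, MEL arrays left of ES-EP arrays. Levels of different genes come from different probes and are not comparable with each other. Mrps21 lies at 11.80 and 11.86 in MEL against 10.54 and 10.51 in ES-EP, and in Mrpl35 the order of the groups is the opposite.

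Grouping by structure or by origin gave similar counts. With Mrps18a and Mrps30 in the large subunit and Mrps36 left out, 7 of 50 large subunit genes were higher in MEL and 27 were lower, and 3 of 26 small subunit genes were higher and 12 were lower. Of 46 genes with a bacterial counterpart, 6 were higher and 25 were lower (median -0.26). Of 30 mitochondria-specific genes, 4 were higher and 14 were lower (median -0.21). The mitochondria-specific class includes Mrps18a and Mrps18b, both lower in MEL, although they descend from bacterial S18. These subsets were compared by counts and medians without a test.

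Most members moved in the same direction between duplicates. MEL culture B exceeded MEL culture A in 62 of 77 members (median difference A minus B -0.09), and ES-EP culture A exceeded ES-EP culture B in 60 (median A minus B 0.06). The median member level was 8.72 and 8.87 in MEL, against 9.24 and 9.17 in ES-EP. The median of all tested features was 6.18 and 6.09 in MEL, and 6.09 and 6.05 in ES-EP. The same counts were not made over all genes or over the brighter genes. Whether the shift is particular to the members was therefore not tested. With single arrays paired across the groups, the median over members lay between -0.34 and -0.19. No member was 2-fold apart between duplicates, in MEL or in ES-EP.

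For 7 of the 85 member features, most of the 20 features next to them in number belong to genes of another chromosome. In 18817 of 18863 genes with 1 feature (99.8%), those neighbours lie on the gene's own chromosome. The 7 features were annotated to Mrpl23, Mrpl27, Mrpl41, Mrpl48, Mrpl51, Mrps33 and Mrps36, and whether they measure the gene or a copy elsewhere was not tested. For Mrpl48 it was the only feature (difference 0.03), so that value is uncertain. With own-locus features preferred, a choice made after seeing the data, 10 members were higher in MEL and 39 were lower.

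The other proteins of the pathway were taken from fixed lists. Of all genes, 22.2% were higher in MEL and 38.2% were lower. Of the 9900 genes at or above the median signal, 34.3% were higher and 35.7% were lower. The shares higher and lower were 34.8% and 43.5% for mitoribosome assembly and 15.4% and 46.2% for mitochondrial translation factors. They were 21.1% and 47.4% for charging mitochondrial tRNAs and 27.3% and 18.2% for mitochondrial DNA transcription and upkeep. For the regulators they were 22.2% and 44.4%. The lists are small, and no share was tested against that of all genes or of the brighter genes. Of 5 further mitoribosomal proteins that carry other names, 4 were measured, and 1 was higher and 1 was lower in MEL. Dap3, a small subunit GTPase, was at 9.86 and 9.91 in MEL, against 9.37 and 9.42 in ES-EP (difference 0.49). Chchd1, a small subunit protein, was at 7.59 and 7.65 in MEL, against 8.58 and 8.33 in ES-EP (difference -0.84).

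Of 23 mitoribosome assembly genes, 8 were higher and 10 were lower in MEL (median -0.01), and 5 were higher when either ES-EP culture was left out. The GTPase Noa1 (0.73) and Mettl17 (0.67), both linked to the small subunit, were higher in MEL. Fastkd2, an RNA-binding protein needed for the large ribosomal RNA of mitochondria, was at 4.0 and 3.74 in MEL, against 9.47 and 9.53 in ES-EP. It was 49.6-fold lower in MEL (difference -5.63, adjusted p = 1.54e-08). Gtpbp10, a GTPase of large subunit maturation, was at 4.04 and 3.92 in MEL, against 8.46 and 8.40 in ES-EP (difference -4.45, 21.9-fold lower, adjusted p = 1.54e-08). Gtpbp10 had 2 features, and these values are those of the brighter one alone. The MEL signals of Fastkd2 and Gtpbp10 lie under the lower quartile of the tested features, 4.74, where RMA compresses differences. These folds may therefore understate the change. No mitochondrial ribosomal protein differed by a comparable amount, the furthest being Mrpl35 at -1.61.

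Of 13 mitochondrial translation factors, 2 were higher and 6 were lower in MEL (median 0.07), and 1 was higher without ES-EP culture A. The initiation factor Mtif3 (0.65) and Oxa1l (0.32), which inserts the products into the inner membrane, were higher. The initiation factor Mtif2 (-0.77) and the release factor family member Mtrf1 (-1.37) were lower. Among 19 measured of 20 genes for charging mitochondrial tRNAs, 4 were higher and 9 were lower (median -0.10). Lars2 (1.01) and Wars2 (0.95), for leucine and tryptophan, lay at the upper end, and Ears2 (-1.22), for glutamate, and the amidotransferase subunit Qrsl1 (-1.42) lay at the lower end. Of 11 genes for mitochondrial DNA transcription and upkeep, 3 were higher and 2 were lower (median -0.15), and 1 was lower when either ES-EP culture was left out. The topoisomerase Top1mt (1.75) and the helicase Twnk (0.78) were higher, and the nuclease Mgme1 (-0.32) and the elongation factor Tefm (-0.76) were lower.

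**Figure D3:**
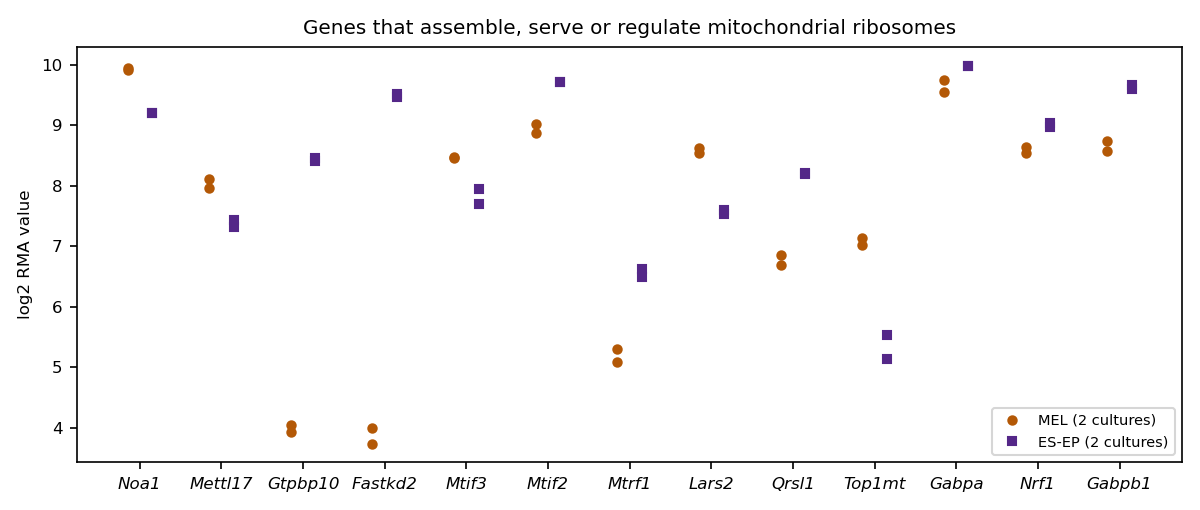
Log2 signal on each array for genes of the other lists, MEL arrays left of ES-EP arrays. Fastkd2 lies at 4.0 and 3.74 in MEL against 9.47 and 9.53 in ES-EP, further apart than any member of the mitochondrial ribosome.

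The cytosolic ribosome served as the comparison most like the mitochondrial one. Of 79 listed cytosolic ribosomal protein genes 55 were measured, and 7 were higher in MEL (12.7%), 18 were lower (32.7%) and 30 were not called. Leaving out MEL culture A or either ES-EP culture gave 4 higher, and cyclic loess gave 14. Their median difference was -0.09, beside -0.24 for the mitochondrial ribosomal proteins. The lists differ in signal, with medians of 12.13 in MEL and 12.11 in ES-EP for the cytosolic genes, against 8.79 and 9.24 for the mitochondrial ones. Whether signal level bears on the differences was not tested. Rpl22 (1.36) and Rpl36a (0.90) were the furthest higher in MEL, and Rps3a1 (-0.85) and Rpl12 (-1.07) the furthest lower. Genes of the cytosolic ribosome have many processed copies, which the probes may not tell apart. The difference between the lists was not tested.

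**Figure D4:**
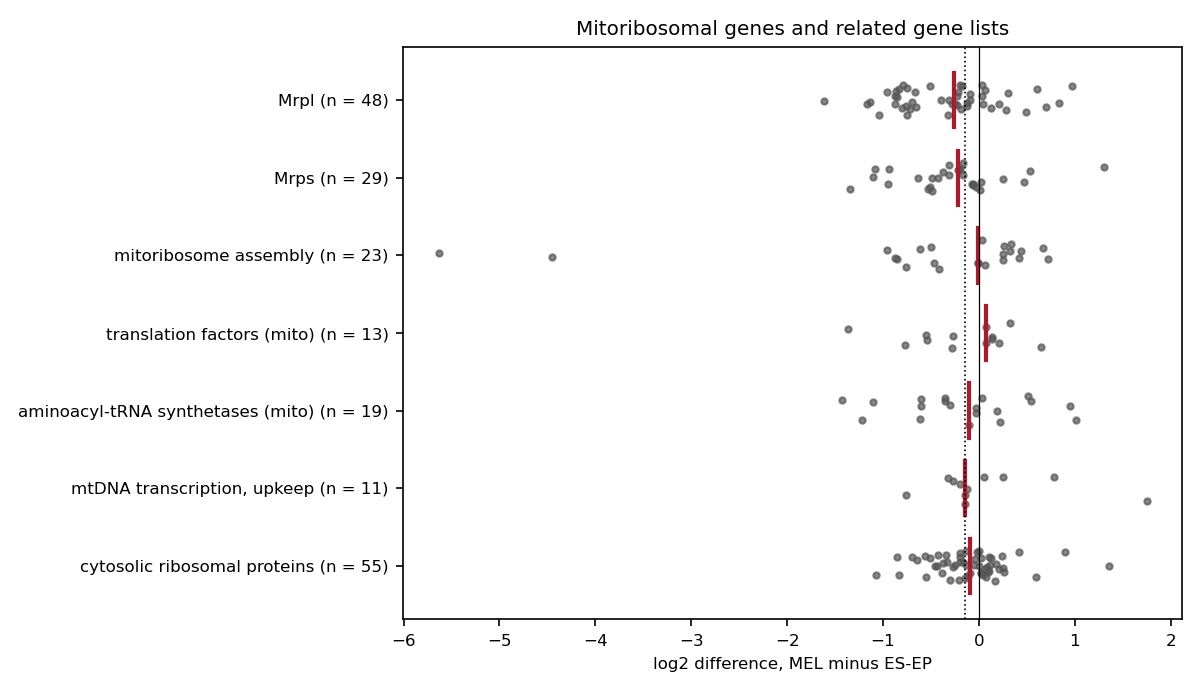
Log2 difference, MEL minus ES-EP, with 1 point per measured gene, a red line at each list's median and a dotted line at the median of all genes. The medians are -0.26 for the Mrpl genes, -0.21 for the Mrps genes and -0.09 for the cytosolic ribosomal proteins, and Fastkd2 and Gtpbp10 stand apart among the assembly genes.

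Of 9 regulators of nuclear genes for mitochondria, 2 were higher and 4 were lower in MEL. The coactivator Ppargc1b (0.68) and the nuclear receptor Esrra (0.54) were higher. Gabpa, the DNA-binding subunit of GABP, was at 9.54 and 9.75 in MEL, against 9.98 and 9.98 in ES-EP (difference -0.33), and its partner Gabpb1 was at 8.58 and 8.74 in MEL, against 9.60 and 9.67 in ES-EP (difference -0.97). Nrf1 was at 8.55 and 8.64 in MEL, against 8.97 and 9.04 in ES-EP (difference -0.41). The coactivator Pprc1 was also lower (-0.50). Yy1 (-0.20), Myc (0.03) and Ppargc1a (-0.23) were not called. Ppargc1a had means of 4.01 in MEL and 4.24 in ES-EP, under the lower quartile of the tested features, 4.74, so its lack of a call says little.

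A promoter was at hand for 68 of the 77 members. The ETS motif was found in 24 of them (35.3%), against 11.9% of 17492 protein-coding promoters and 20.4% of the 7954 whose genes had a signal above the median. The NRF1 motif was found in 16 (23.5%), against 8.83% and 15.5%, and the YY1 motif in 11 (16.2%), against 3.30% and 6.20%. All 3 motifs were more frequent in the members than in either set, as counts without a test. The E-box CACGTG was found in 5 (7.35%), against 7.90% and 10.85%, and the letters TATAAA in 4 (5.88%), against 13.3% and 6.22%. Both strands were searched, and motifs that share end letters were counted separately. The ETS motif was in 4 of 8 promoters of members higher in MEL, 12 of 37 of those lower and 8 of 23 of those not called. The NRF1 motif was in 3 of 8, 8 of 37 and 5 of 23 of the same promoters, and the YY1 motif in 1 of 8, 4 of 37 and 6 of 23.

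Within 1000 bases, 23 of the members with a promoter start opposite a gene on the other strand, and 22 of these neighbours were measured. In 11 cases both genes were called, in the same direction in 7 and in opposite directions in 4. The member was lower in MEL in all 11. Of all genes, 38.2% were lower and 22.2% were higher, so a called neighbour of any kind is more often lower. Whether these neighbours agree more often than unrelated genes was not tested. Mrps11 and Mrpl46, which start 42 bases apart and are counted from either side, were both lower in MEL (-0.53 and -0.66). Mrpl47 (-1.17) starts 308 bases from Ndufb5, a complex I subunit, which was higher in MEL (0.97, adjusted p = 5.00e-05). That pair is counted as opposite on Mrpl47's brighter feature, and the dimmer one, called higher (0.36), goes the same way as Ndufb5. The other opposite pairs were Mrpl50 with Zfp189, Mrpl2 with Klc4 and Mrpl57 with Ska3. In each of these 3 pairs the ribosomal protein gene was lower in MEL and its neighbour higher.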

How the data were processed

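The deposited table gives, per the labels, log2 RMA values from GeneSpring GX for 4 Mouse Gene 1.0 ST arrays, 2 per group; the submitters' processing notes also name RMA. Its version and filters, the annotation and the set of arrays normalized together were not given in the sources used here. The table has no detection calls, and the number of arrays limits the precision. Of 35557 features, the 23410 that the platform annotation lists were tested, and 12147 were left out. Of the tested features, 21789 had 1 symbol and 21698 of these matched RefSeq GRCm38.p6 by Entrez identifier. The 1621 features with several symbols named no gene.

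MEL and ES-EP arrays were set against each other in limma 3.58.1 under R 4.3.3 (lmFit and eBayes, Benjamini-Hochberg over the 23410 features). A gene was called at an adjusted p under 0.05, and SE is that of the moderated fit, with 2 residual and 5.75 prior degrees of freedom. With 4 arrays there are 3 ways to split them, so the smallest two-sided p of an exact permutation test is 0.333. The code was run first on simulated data drawn with each feature's own spread, then on data drawn with the moderated spread that limma uses. The second draw was adopted after the first had recovered fewer genes, at 2-fold as well as at 1.5-fold. How often a difference of a given size would be missed here was not tested. The letters A and B were not taken to pair the cultures, because the labels name no shared day. The check on deviations (r = 0.113 over 23410 features) rests on 2 pairs, which are too few to decide.

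Named genes were the 8 called members with the largest difference in each direction, a fixed set of stalk, paralog and special-role genes, the 2 called genes furthest in each direction of every other list, all regulators, and members whose features disagree. Other genes were named for a count, a feature or a neighbour after their values were seen. The members and the lists were chosen with earlier results of these data known. Alternatives changed the normalization, the features tested, the filter, the prior, the block, the cultures and the feature that stands for a gene.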

Additional observations from a re-analysis of the deposited data

How the results depend on the processing

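Over 17 other settings, 8 of the 10 members called higher in MEL and 31 of the 40 called lower kept their call, and none took the opposite call. Of the 27 members not called, 15 stayed uncalled in all of these settings, and the rest were called in at least 1. Calls were lost in at least 1 setting for Mrpl33 and Mrpl39, which were higher, and for Mrpl12, Mrpl18, Mrpl24, Mrpl40, Mrpl44, Mrpl50, Mrps16, Mrps26 and Mrps33, which were lower. Leaving out each culture in turn gave 8 to 11 members higher, 31 to 43 lower, 1 to 2 at least 2-fold higher and 5 to 9 at least 2-fold lower, with medians of -0.32 to -0.22 for the large subunit and -0.29 to -0.17 for the small subunit. The fewest lower calls came without ES-EP culture A. Scaling moved the background: cyclic loess gave 29.1% of all genes higher and 26.9% lower (median 0.00), quantile normalization 26.7% and 31.4% (median -0.04), and centring on array medians 19.6% and 45.1% (median -0.21). The members' median minus that of all genes was -0.10 in the main setting and with centring, and -0.18 with quantile normalization and cyclic loess. Leaving out a culture gave -0.06 (without MEL culture A) to -0.19 (without MEL culture B), and leaving out features under the median signal gave -0.21. Under cyclic loess 2 members were at least 2-fold higher and the large subunit median was -0.18. At a 1.5-fold criterion, 5 members were higher and 25 were lower. With the replicate letter as a block, 11 members were higher and 40 were lower. In every setting the members' median was negative.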
